A study of Sus scrofa with 9 samples.

Results

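The genes examined here are 9 genes that mark or serve the hormone output of Leydig cells, the interstitial cells of the testis, in RNA sequencing of pig germ cell fractions. They were chosen as a list of gene symbols: INSL3, CYP17A1, CYP11A1, CYP19A1, STAR, LHCGR, CYB5A, FDX1 and SULT1C3. Of the 9 symbols, 8 were found among the 22342 gene identifiers of the deposited tables. CYP19A1 had no matching symbol and is not analysed here. Total RNA was sequenced from pig (Sus scrofa) testis cells labelled spermatogonia, spermatocytes and round spermatids, with 3 libraries in each group, to follow gene expression and chromatin structure through spermatogenesis. Spermatogonia are the mitotic germ cells, spermatocytes the cells in meiosis, and round spermatids the haploid cells that follow. The sources used here give no breed, age, treatment or method of separating the cells, and name no animals. The p-values therefore rest on library-to-library spread, part of which may be technical.

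Leydig cells lie between the seminiferous tubules and make androgens from cholesterol. Luteinizing hormone binds the receptor LHCGR, and the STAR protein then moves cholesterol into mitochondria, where CYP11A1 cuts its side chain with electrons delivered by FDX1. CYP17A1 turns the product, pregnenolone, into androgen precursors, and CYB5A promotes the lyase step of that enzyme. In boars the same cells also make the odorous steroid androstenone and release much of their steroid as sulfates, which sulfotransferases form. INSL3 is a peptide hormone of Leydig cells that acts on the receptor RXFP2 and is known for its part in testis descent. INSL3 and CYP17A1 are common markers of Leydig cells, whereas FDX1 and CYB5A are used in many tissues.

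Library totals ran from 47963279 estimated counts in round spermatids 2 to 64639201 in spermatogonia 2. Levels of 1 gene across libraries are given as CPM, the counts relative to a library's total, after scaling by TMM factors, and levels of different genes are compared as TPM, which also takes gene length into account. The 3 spermatogonia libraries were nearly alike, with a median chi-square per gene of 0.801 to 0.868 between pairs where counting alone gives 0.455. Spermatocyte pairs gave 5.14 to 10.8. Round spermatids 2 stood apart from the other round spermatid libraries, at 20.6 and 22.1, while those differed by 2.27. The spermatogonia marker list summed to 193 to 197 TPM in the libraries labelled spermatogonia, 112 to 131 in spermatocytes and 87.9 to 125 in round spermatids. Spermatid markers summed to 18100 to 18200, 3110 to 10700 and 37200 to 47300 TPM in the same order. Spermatocyte markers summed to 1710 to 1720, 2650 to 3210 and 409 to 593 TPM. The libraries labelled spermatogonia thus held a higher spermatid marker sum than those labelled spermatocytes. Of 10 spermatogonia markers tested, 7 were called lower and 1 higher in spermatocytes against spermatogonia. Of all genes tested, 44.0% were called lower and 29.3% higher there. In round spermatids against spermatogonia 5 of the 10 were lower and 3 higher, beside 39.7% and 39.5% of all genes. The 1 higher in spermatocytes was ETV5, the most abundant spermatogonia marker, at 85.9 ± 1.65 TPM in spermatogonia and 95.9 ± 13.1 in spermatocytes (SD, n = 3; log2 change 0.68, edgeR adjusted p = 0.000352; 0.15, limma adjusted p = 0.576, on TPM). On TPM with a pseudocount of 0.1 the median change of all genes tested was itself -0.744. KIT was picked after its values were seen because the spermatogonia columns are headed with its name. It was not called lower in spermatocytes against spermatogonia (0.23, edgeR adjusted p = 0.104). With RLE size factors it was higher there (0.41, adjusted p = 0.00922). Its sign turned without normalization factors (-0.18, adjusted p = 0.26) and on TPM (-0.28, limma adjusted p = 0.284), and neither change passed. In round spermatids KIT was higher than in spermatogonia (1.95, edgeR adjusted p = 2.17e-07). The level of KIT thus did not mark the libraries labelled spermatogonia.

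All 8 genes were at their highest in the libraries labelled spermatogonia and were called lower in both later stages. In the comparison of spermatocytes with spermatogonia, 8 of 8 were called lower and 0 higher (edgeR quasi-likelihood test, adjusted p below 0.05), while 44.0% of the 16802 genes tested were called lower and 29.3% higher. The median log2 fold change of the 8 was -6.2, beside -0.325 over all genes tested. In round spermatids against spermatogonia 8 of 8 were again called lower and 0 higher, where 39.7% of all genes were called lower and 39.5% higher, and the median was -2.87 beside 0.00294. From spermatocytes to round spermatids 5 of 8 were called higher, 1 lower and 2 were not called, where 42.7% of all genes were called higher and 36.4% lower, and the median was 1.68 beside 0.19. The comparisons share libraries in pairs, so their values are set side by side and not correlated. By CPM the 2 stages did not overlap for 8, 8 and 6 of the 8 genes in these comparisons. Over all genes tested, 48.1% had every spermatocyte library below every spermatogonia library, and 31.9% had every one above. For round spermatids these shares were 43.5% and 41.7% against spermatogonia, and 36.1% and 42.1% against spermatocytes. Lack of overlap in a single gene was thus common. Without round spermatids 2 the counts were the same in all 3 comparisons. All 8 genes passed the filter on low counts, which used all 9 libraries. LHCGR passed it through the spermatogonia libraries, with at most 16.27 estimated counts in any library of the later stages. With only round spermatids and spermatocytes fitted, LHCGR was filtered out. In bulk RNA, fewer cells of a type and less of a transcript per cell cannot be told apart.

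**Figure D1:**
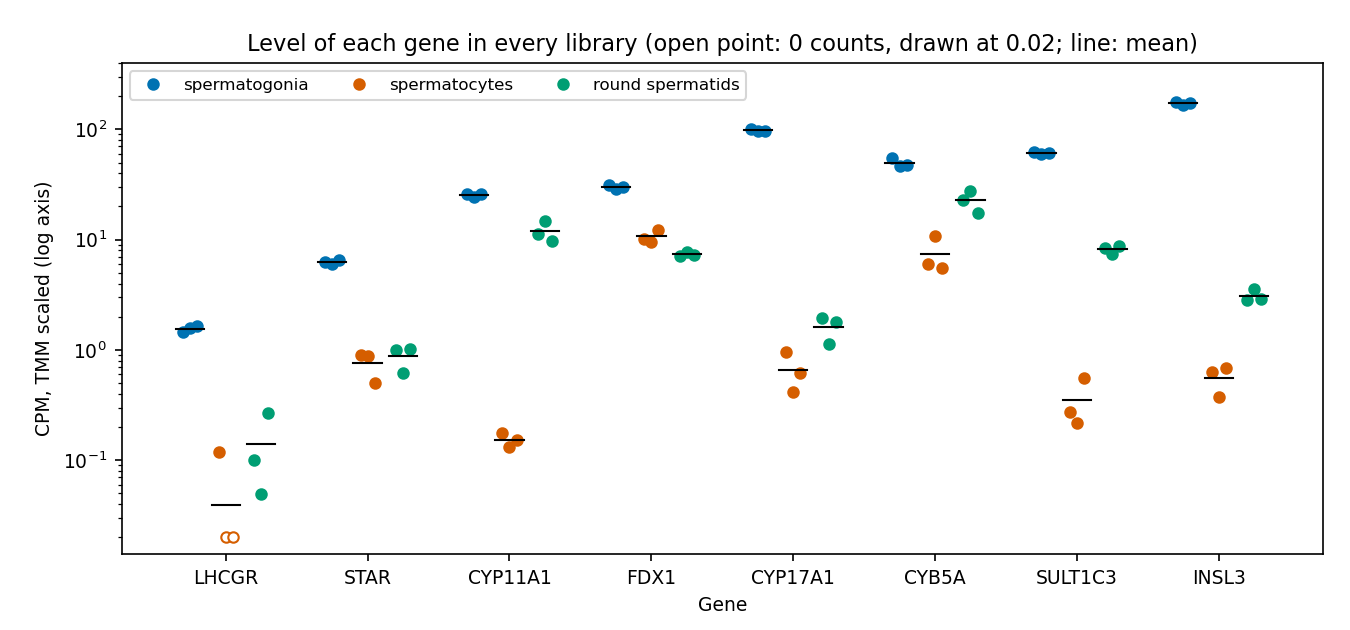
CPM (TMM scaled, log axis) of each of the 8 genes in every library, with the mean of each group as a line and libraries at 0 counts drawn as open points at 0.02. Spermatogonia lie above both other groups for all 8 genes, and round spermatids lie above spermatocytes for INSL3, CYP17A1, CYP11A1, CYB5A and SULT1C3.

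LHCGR, the luteinizing hormone receptor, was low in every library. It lies on chromosome 3 from 91964415 to 92023821 (Sscrofa11.1, identifier ENSSSCG00000008421). It measured 1.463, 1.585 and 1.638 CPM in spermatogonia 1, 2 and 3. In spermatocytes it measured 0.1176 CPM in library 2 and had no counts in libraries 3 and 4. In round spermatids 1, 2 and 3 it measured 0.1015, 0.04964 and 0.2703 CPM. Every spermatogonia library was above every other library, and the later stages overlapped. The estimated counts behind these values were 102.6 to 114.5 in spermatogonia, at most 5.891 in spermatocytes and 3.475 to 16.27 in round spermatids. A count of 0 allows up to 3 counts, so LHCGR was at least 23-fold lower in spermatocytes 3 and at least 27-fold lower in spermatocytes 4 than the spermatogonia mean of 1.56 ± 0.09 CPM (SD, n = 3), with counting error alone considered. The fitted change was -5.21 ± 0.736 (log2, SE; edgeR adjusted p = 0.000107) in spermatocytes and -3.46 ± 0.585 (adjusted p = 0.000284) in round spermatids, both against spermatogonia. Round spermatids against spermatocytes did not pass (1.75 ± 0.966, adjusted p = 0.119). The gene was tested there only because its spermatogonia counts passed the filter. That comparison rested on spermatocytes 2: without it all spermatocyte counts were 0 and the fitted change was 6.11 (adjusted p = 0.00993), which is no bound. The change against spermatogonia was then fitted at -9.58 in spermatocytes, and it was -4.62 without spermatocytes 4. In round spermatids it was -4.34 without library 3.

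STAR, the mitochondrial cholesterol transporter, lies on chromosome 15 from 48377597 to 48385398 (ENSSSCG00000034942). Spermatogonia 1, 2 and 3 held 6.22, 5.959 and 6.524 CPM. Spermatocytes 2, 3 and 4 held 0.9016, 0.8731 and 0.4975 CPM. Round spermatids 1, 2 and 3 held 0.9985, 0.6122 and 1.014 CPM. Spermatogonia were higher than every other library, and spermatocytes and round spermatids overlapped. STAR fell 8.24-fold in spermatocytes (log2 change -3.04 ± 0.262, adjusted p = 4.3e-06) and was 7.12-fold lower in round spermatids than in spermatogonia (-2.83 ± 0.255, adjusted p = 2.54e-06). The change between spermatocytes and round spermatids was 0.21 ± 0.274 (log2, adjusted p = 0.493), and it was -0.03 (adjusted p = 0.914) without spermatocytes 4.

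CYP11A1 starts steroid synthesis by cutting the cholesterol side chain. It lies on chromosome 7 from 59172829 to 59188479 (ENSSSCG00000025273). Its levels were 26.2, 24.27 and 25.98 CPM in spermatogonia 1, 2 and 3. In spermatocytes 2, 3 and 4 they were 0.1764, 0.131 and 0.1531 CPM, and in round spermatids 1, 2 and 3 they were 11.24, 14.64 and 9.783 CPM. No group overlapped another: the gene was near 0 in spermatocytes, and round spermatids lay between the other stages. The spermatocyte values rest on only 6.223 to 8.892 estimated counts per library, so the fold sizes against that stage are imprecise. The fall in spermatocytes was 163-fold (log2 change -7.35 ± 0.232, adjusted p = 6.54e-08). Round spermatids were 76.1-fold above spermatocytes (6.25 ± 0.229, adjusted p = 5.05e-09) and 2.14-fold below spermatogonia (-1.1 ± 0.154, adjusted p = 7.08e-05). On the TPM scale with a pseudocount of 0.1 the rise to round spermatids was 5.23 (limma adjusted p = 6.87e-08), since the pseudocount understates changes of low genes.

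FDX1, the ferredoxin that passes electrons to mitochondrial cytochromes P450 such as CYP11A1, changed least of the 8 in spermatocytes. It lies on chromosome 9 from 38376147 to 38399026 (ENSSSCG00000035945). It measured 31.23, 29.03 and 29.93 CPM in spermatogonia 1, 2 and 3, 10.19, 9.539 and 12.36 CPM in spermatocytes 2, 3 and 4, and 7.108, 7.76 and 7.282 CPM in round spermatids 1, 2 and 3. The groups stepped down in that order without overlap. Spermatocytes were 2.81-fold below spermatogonia (log2 change -1.49 ± 0.127, adjusted p = 4.01e-06), and round spermatids 4.07-fold below (-2.03 ± 0.129, adjusted p = 2.35e-07). The step from spermatocytes to round spermatids, -0.54 ± 0.127 (adjusted p = 0.00263), was the single fall among the 8 genes there. It was lost without normalization factors (-0.08, adjusted p = 0.685). On TPM with a pseudocount of 0.1 it was of like size but just missed the threshold (-0.6, limma adjusted p = 0.0516).

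CYP17A1 carries out the hydroxylase and lyase reactions that lead to androgens. It lies on chromosome 14 from 113805616 to 113820445 (ENSSSCG00000010591). Spermatogonia 1, 2 and 3 measured 100.4, 96.46 and 97.12 CPM. Spermatocytes 2, 3 and 4 measured 0.9604, 0.4147 and 0.6123 CPM, and round spermatids 1, 2 and 3 measured 1.946, 1.125 and 1.791 CPM. Both later stages were low, with every round spermatid library above every spermatocyte library. CYP17A1 was 147-fold lower in spermatocytes (log2 change -7.19 ± 0.3, adjusted p = 2.38e-07) and 60.4-fold lower in round spermatids (-5.92 ± 0.275, adjusted p = 3.6e-08) than in spermatogonia. Round spermatids were 2.42-fold above spermatocytes (1.28 ± 0.281, adjusted p = 0.00165), a difference that did not pass a test against a 2-fold change (adjusted p = 0.116).

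CYB5A, the cytochrome b5 that promotes the lyase step of CYP17A1, lies on chromosome 1 from 149737584 to 149773222 (ENSSSCG00000004875). It measured 55.47, 46.1 and 47.21 CPM in spermatogonia 1, 2 and 3. In spermatocytes 2, 3 and 4 it measured 5.978, 10.87 and 5.492 CPM, and in round spermatids 1, 2 and 3 it measured 23.07, 27.61 and 17.37 CPM. The 3 groups did not overlap, with round spermatids between the others. CYB5A was 6.67-fold lower in spermatocytes (log2 change -2.74 ± 0.271, adjusted p = 1e-05) and 2.19-fold lower in round spermatids (-1.13 ± 0.254, adjusted p = 0.00202) than in spermatogonia. It was 3.05-fold higher in round spermatids than in spermatocytes (1.61 ± 0.262, adjusted p = 0.000205).

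SULT1C3 belongs to the cytosolic sulfotransferases, which attach sulfate to small molecules. The table of RefSeq genes used here gave it no position (ENSSSCG00000028691). It measured 62.06, 59.86 and 60.73 CPM in spermatogonia 1, 2 and 3, 0.2744, 0.2183 and 0.5549 CPM in spermatocytes 2, 3 and 4, and 8.343, 7.379 and 8.718 CPM in round spermatids 1, 2 and 3. The 3 groups were far apart. The fall in spermatocytes, where libraries held 9.709 to 29.4 estimated counts, was 171-fold (log2 change -7.42 ± 0.265, adjusted p = 1.09e-07). Round spermatids were 22.9-fold above spermatocytes (4.52 ± 0.25, adjusted p = 6.06e-08) and 7.47-fold below spermatogonia (-2.9 ± 0.199, adjusted p = 3.8e-07). Its close relatives SULT1C2 and SULT1C4 could share reads with it, so its values are uncertain to that extent. By TPM, SULT1C4 measured 1.46 ± 0.118 (SD, n = 3) in spermatogonia, far under the 61.4 ± 0.726 of SULT1C3. In round spermatids the genes were alike in level, at 6.09 ± 1.45 TPM for SULT1C4 and 5.44 ± 1.17 for SULT1C3.

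INSL3, the peptide hormone, was the most abundant of the 8 by TPM in spermatogonia. It lies on chromosome 2 from 59929591 to 59931220 (ENSSSCG00000013887). It measured 178.8, 166.5 and 173.7 CPM in spermatogonia 1, 2 and 3, 0.6272, 0.3711 and 0.6888 CPM in spermatocytes 2, 3 and 4, and 2.843, 3.59 and 2.906 CPM in round spermatids 1, 2 and 3. Its groups did not overlap. INSL3 fell 304-fold in spermatocytes (log2 change -8.25 ± 0.219, adjusted p = 3.37e-08), the 13th largest fall of the 16802 genes tested. Round spermatids were 5.48-fold above spermatocytes (2.45 ± 0.197, adjusted p = 8.46e-07) and 55.5-fold below spermatogonia (-5.79 ± 0.188, adjusted p = 6.05e-09). By TPM INSL3 ranked between 344 and 370 among all genes in the spermatogonia libraries, between 8300 and 9028 in round spermatids and between 10757 and 11514 in spermatocytes.

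**Figure D2:**
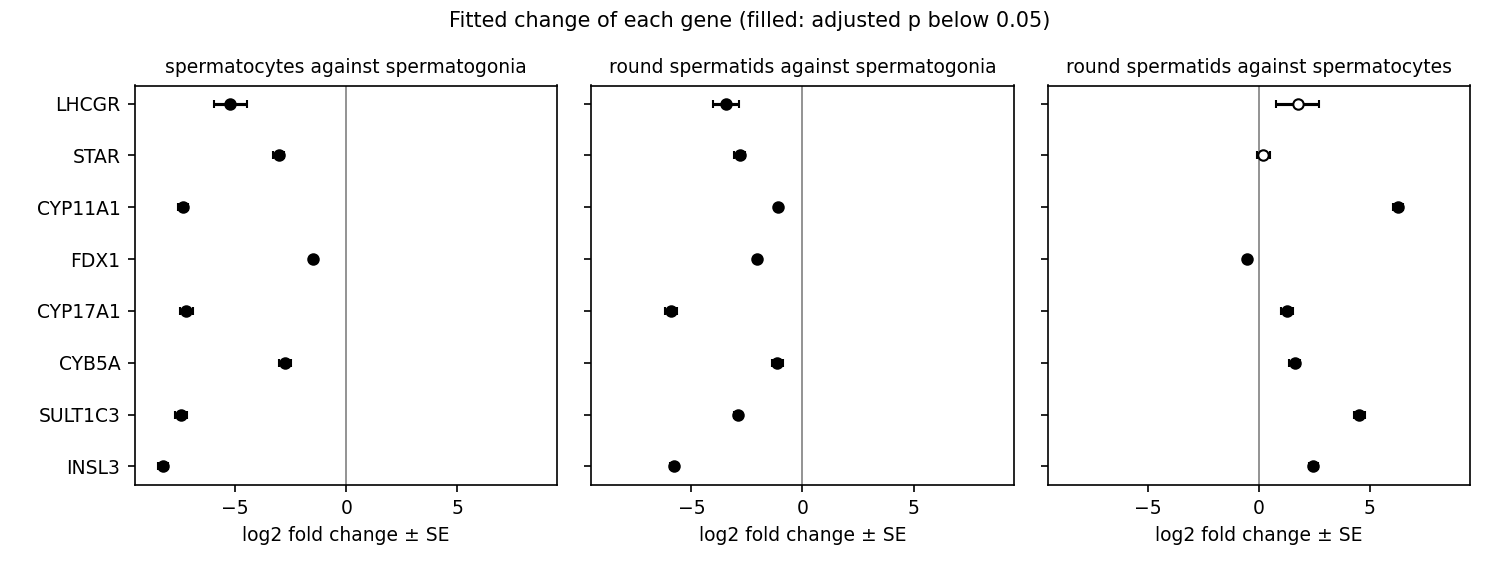
Fitted log2 fold change with its standard error for each of the 8 genes in the 3 comparisons, filled where the adjusted p was below 0.05. All 8 points lie left of 0 in both comparisons with spermatogonia, and in round spermatids against spermatocytes 5 filled points lie right of 0, with CYP11A1 farthest at 6.25.

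The order of the genes by TPM changed with the stage. In spermatogonia it was INSL3 (463 ± 13.9 TPM, SD, n = 3), CYP17A1 (96.6 ± 1.38), SULT1C3 (61.4 ± 0.726), CYB5A (51.8 ± 4.94), CYP11A1 (25.4 ± 0.967), FDX1 (22.1 ± 0.664), LHCGR (3.28 ± 0.224) and STAR (2.76 ± 0.132). No neighbours in that order overlapped between libraries. In spermatocytes FDX1 (5.5 ± 1.08 TPM) and CYB5A (5.38 ± 2.01) led and overlapped, followed by INSL3 (1.06 ± 0.348) and CYP17A1 (0.454 ± 0.182), which did not overlap each other. Below these, SULT1C3 overlapped CYP17A1, STAR and LHCGR, and LHCGR also overlapped CYP11A1, so their order was not resolved. In round spermatids CYB5A (16.6 ± 8.61 TPM), CYP11A1 (8.32 ± 4.36), INSL3 (5.76 ± 2.6), SULT1C3 (5.44 ± 1.17) and FDX1 (3.69 ± 1.31) each overlapped the next. CYP17A1 (1.02 ± 0.0541 TPM) lay below them and above STAR (0.247 ± 0.00271) and LHCGR (0.183 ± 0.115), which overlapped.

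The 8 genes summed to 703.5 to 746.3 TPM in spermatogonia, 11.69 to 13.91 in spermatocytes and 28.79 to 61.75 in round spermatids. INSL3 made up 63.7% of that sum in spermatogonia and CYP17A1 13.3%. In spermatocytes FDX1 made up 42.3% and CYB5A 40.9%, and INSL3 8.23%. In round spermatids CYB5A made up 39.3%, CYP11A1 19.7%, SULT1C3 11.0 to 16.7% by library, INSL3 13.9% and CYP17A1 2.75%. CYP11A1, SULT1C3 and FDX1 had made up 3.5%, 8.46% and 3.04% of the sum in spermatogonia, and FDX1 made up 9.14% in round spermatids. From spermatogonia to round spermatids the shares of INSL3 and CYP17A1 were thus smaller and those of CYB5A, CYP11A1, SULT1C3 and FDX1 larger. The highest round spermatid sum was that of library 2, which held the highest TPM of the group for 5 of 8 genes and the highest CPM for 4 of 8.

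**Figure D3:**
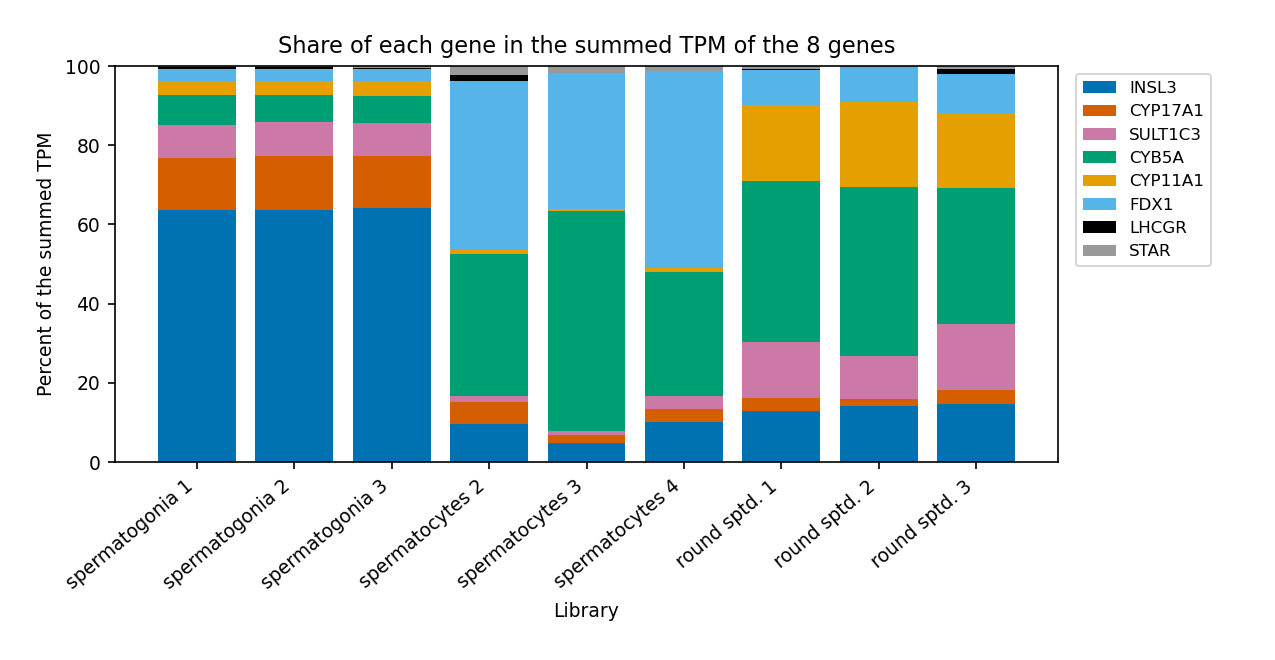
Percent of the summed TPM of the 8 genes taken by each gene, 1 bar per library. INSL3 takes the most in the 3 spermatogonia libraries (mean 63.7%), FDX1 and CYB5A take most of the spermatocyte bars, and CYP11A1 appears as a wide band (mean 19.7%) in round spermatids.

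The proportions of the genes to each other were compared between stages as TPM ratios to CYP17A1. The log2 TPM ratio of CYP11A1 to CYP17A1 was -1.93 ± 0.0444 (SD, n = 3) in spermatogonia, -2.01 ± 0.44 in spermatocytes and 2.91 ± 0.699 in round spermatids. In linear terms CYP11A1 stood at 0.255 to 0.271 of CYP17A1 in spermatogonia libraries, 0.183 to 0.336 in spermatocytes and 5.53 to 13.1 in round spermatids. The ratio overlapped between the first stages and was above both of them in all 3 round spermatid libraries. SULT1C3 to CYP17A1 changed in the same stages, at 0.632 to 0.64 in spermatogonia, 0.285 to 0.935 in spermatocytes and 4.39 to 6.69 in round spermatids. In spermatocytes these ratios rest on few estimated counts per library: 6.223 to 8.892 for CYP11A1, 9.709 to 29.4 for SULT1C3 and 18.76 to 49.35 for CYP17A1. The log2 ratio of INSL3 to CYP17A1 was 2.26 ± 0.0276 in spermatogonia, 1.25 ± 0.392 in spermatocytes and 2.41 ± 0.611 in round spermatids, where it overlapped that of spermatogonia (difference 0.151, exact two-sided permutation p = 1.0). Of 18 comparisons of 6 ratios between stages, 14 had no overlap between groups, which gives the smallest exact two-sided permutation p that 3 against 3 libraries allow, 0.1 (Benjamini-Hochberg 0.129), so none could pass 0.05. Lack of overlap was also common in single genes by CPM. In spermatocytes against spermatogonia 48.1% of all genes tested lay wholly below and 31.9% wholly above. The share for ratios of other genes was not computed. LHCGR was left out, being at 0 in 2 libraries.

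**Figure D4:**
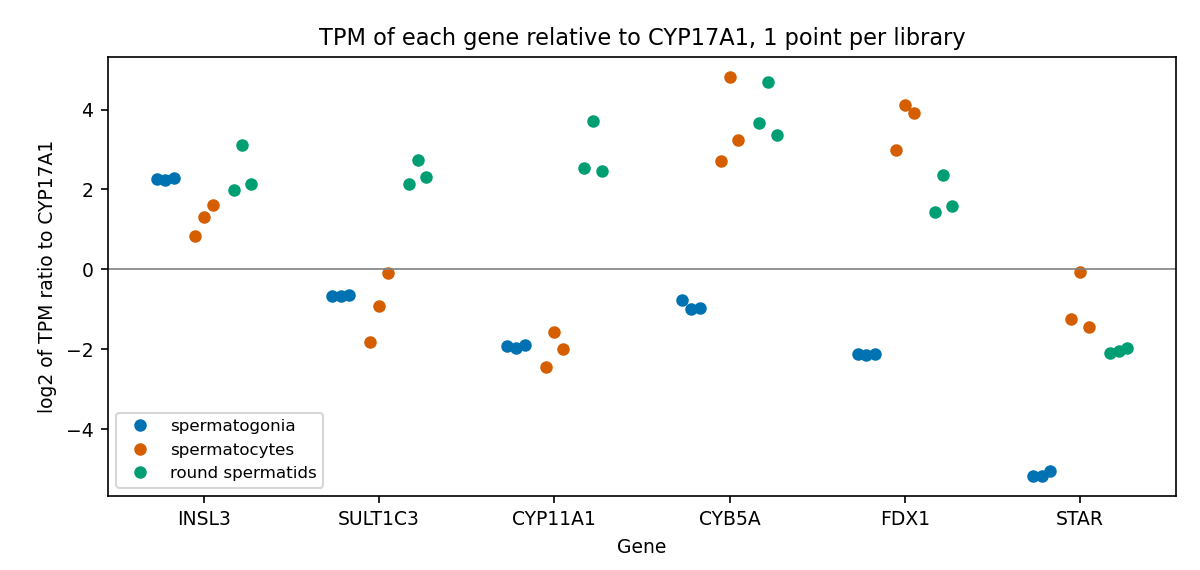
Log2 of the TPM ratio of each gene to CYP17A1, 1 point per library. For CYP11A1 and SULT1C3 the spermatogonia and spermatocyte points overlap below 0 and the 3 round spermatid points lie above 2, while INSL3 round spermatid points overlap those of spermatogonia.

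Genes with the profile nearest to that of INSL3 over the 9 libraries were sought among 12488 others, by the root mean square difference of centred log2(CPM + 0.1). The nearest was CYP17A1 (0.59), followed by KCNH7 (0.739), RDH12 (0.867), SULT1C3 (1.22), DEGS2 (1.29) and FMO1 (1.29). Nearest to CYP17A1 were RDH12 (0.527), INSL3 (0.59), KCNH7 (0.674), DPP6 (0.81), FAM151A (0.957) and ZDHHC19 (1.05). KCNH7, a potassium channel gene, averaged 21.7 TPM in spermatogonia, 0.0231 in spermatocytes and 0.0713 in round spermatids. RDH12, a retinol dehydrogenase gene, averaged 11.8, 0.0164 and 0.062 TPM in the same order. LHCGR took place 39 for INSL3, CYP11A1 place 51 and FDX1 place 922. The measure takes in the size of a change as well as its shape. By it the 8 genes were not all alike.

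Genes at or near the same loci did not all move with them. BORCS7, which overlaps CYP17A1 in the annotation, rose in spermatocytes (log2 change 1.43, adjusted p = 0.000412), from 2.17 to 4.04 TPM. GTF2A1L, which overlaps LHCGR, rose there too (1.55, adjusted p = 4.26e-06), from 380 to 776 TPM. LHCGR lay far below GTF2A1L in every stage, and no source used here says whether counting took account of strand, so reads of these overlapping genes may not be separable. CCDC33 lies 145 bases from CYP11A1 and was lower in spermatocytes (-1.51, adjusted p = 0.000677), but against spermatogonia its change in round spermatids did not pass (-0.35, adjusted p = 0.259). ASH2L, 1028 bases from STAR, was below spermatogonia in both round spermatids (-2.43, adjusted p = 6.18e-08) and spermatocytes (-0.48, adjusted p = 0.0037), as STAR was. JAK3, 3087 bases from INSL3, was also lower in spermatocytes (-2.14, adjusted p = 8.8e-05). Farther off, SEMA7A at 53295 bases from CYP11A1 (-4.28, adjusted p = 3.78e-06) and FSHR at 189160 bases from LHCGR (-4.91, adjusted p = 3.45e-05) were lower there. In round spermatids both were above spermatogonia (1.43, adjusted p = 0.00094, and 2.19, adjusted p = 7.39e-05). RDX, 76586 bases from FDX1, rose in spermatocytes (1.98, adjusted p = 1.56e-05). Not all neighbours are named here.

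Other genes of the steroid pathway were read as lists beside the same backgrounds, the shares of all genes called on counts. Against spermatogonia these were 44.0% lower and 29.3% higher in spermatocytes, and 39.7% lower and 39.5% higher in round spermatids. Of 11 genes that supply cholesterol, 8 were called lower and 3 higher in spermatocytes against spermatogonia (median log2 change -1.97). In round spermatids against spermatogonia 5 were higher, 1 lower and 5 not called (median 0.725). On TPM with a pseudocount of 0.1 the median there was 0.0303, with 5 higher and 3 lower. The median over all genes tested was itself lower on that scale, at -0.579 there beside 0.00294 on counts. In spermatocytes against spermatogonia it was -0.744 on TPM beside -0.325 on counts. The TPM values of this and the following lists are to be read beside that shift of the whole scale. The share of all genes called on TPM is not given here, so list counts on TPM stand without a background. LIPE, a lipase that frees cholesterol from its esters, fell by 1.97 on the log2 scale in spermatocytes (adjusted p = 0.000291) and rose by 2.03 from there to round spermatids (adjusted p = 0.000166). Of 5 electron partners of the P450 enzymes, 4 were lower and 1 higher in spermatocytes, and 3 were lower and 1 higher in round spermatids, against spermatogonia. On TPM none was called higher in either comparison. POR, the reductase that serves CYP17A1, averaged 56.6, 9.29 and 22.2 TPM in the 3 stages and was lower than in spermatogonia in both spermatocytes (-2.08, adjusted p = 3.39e-07) and round spermatids (-0.78, adjusted p = 1.86e-05). FDXR, the reductase that serves FDX1 and a gene picked after its values were seen, was likewise lower in both (-2.24 with adjusted p = 1.22e-05, and -1.95 with adjusted p = 1.59e-05).

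Of 17 enzymes that convert steroids, 11 were lower and 4 higher in spermatocytes, and 10 higher and 6 lower in round spermatids, against spermatogonia. On TPM with a pseudocount of 0.1 the second count was 6 higher and 7 lower, without a background share on that scale. Among all genes tested on counts, 44.0% were lower and 29.3% higher in spermatocytes, and 39.7% lower and 39.5% higher in round spermatids. HSD17B3, which turns androstenedione into testosterone, averaged 6.26 TPM in spermatogonia, 0.246 in spermatocytes and 18.8 in round spermatids. It fell by 4.1 on the log2 scale in spermatocytes (adjusted p = 1.09e-06) and was 4.29-fold above spermatogonia in round spermatids (2.1, adjusted p = 2.91e-06), where all 8 genes were lower. HSD17B4, a peroxisomal enzyme, rose in spermatocytes (1.47, adjusted p = 4.58e-06). Of 8 genes of sulfate transfer, 2 were lower and 3 higher in spermatocytes, and 7 higher and 1 lower in round spermatids (5 and 1 on TPM). PAPSS2, which makes the sulfate donor, averaged 4.2, 0.243 and 9.25 TPM in the 3 stages. It fell by 3.62 on the log2 scale in spermatocytes (adjusted p = 2.15e-06) and was above spermatogonia by 1.69 in round spermatids (adjusted p = 4.58e-05).

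Among 14 transcription regulators known in Leydig cells, 10 were lower and 3 higher in spermatocytes against spermatogonia. In round spermatids against spermatogonia 12 were higher and 1 lower (9 and 1 on TPM). For this and the following lists the shares of all genes on counts were again 44.0% lower and 29.3% higher in spermatocytes. In round spermatids they were 39.7% lower and 39.5% higher. NR5A1, an activator of steroid enzyme genes in Leydig and Sertoli cells, averaged 3.88, 1.44 and 5.39 TPM in the 3 stages and was lower in spermatocytes (log2 change -0.91, adjusted p = 0.00118). Its change in round spermatids was 1.12 (adjusted p = 0.000207) on counts and 0.46 (limma adjusted p = 0.0626) on TPM. NR4A1, an immediate early gene that also acts on steroid enzyme genes, averaged 8.66 TPM in spermatogonia and 236 in round spermatids (log2 change 5.37, adjusted p = 2.84e-07). Of 16 genes of LH signalling and Leydig growth factor receptors, 11 were lower and 3 higher in spermatocytes, and 11 higher and 4 lower in round spermatids, against spermatogonia. On TPM the round spermatid count was 6 higher and 4 lower. The 3 higher in spermatocytes were PRKAR1A and PRKACA, subunits of the cyclic AMP-dependent kinase, and PDE8A, a phosphodiesterase that breaks down cyclic AMP. PRKAR1A went from 354 to 615 TPM (log2 change 1.32, adjusted p = 3.66e-06) and PDE8A from 105 to 188 TPM (1.37, adjusted p = 5.82e-06). PRKACA went from 245 to 290 TPM (0.76, adjusted p = 0.00624), a rise that was lost on TPM (0.24, limma adjusted p = 0.147). RXFP2, the INSL3 receptor, was low in all stages, at 0.329, 0.101 and 0.187 TPM. Its fall in spermatocytes (-1.22, adjusted p = 0.0311) did not pass with RLE size factors (-1.05, adjusted p = 0.0551) or without a filter (-1.01, adjusted p = 0.0784). Of 11 other transcripts of Leydig cells, 8 were lower and 2 higher in spermatocytes, and 8 higher and 3 lower in round spermatids (6 and 3 on TPM), against spermatogonia.

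Markers of other somatic cells of the testis followed an order of their own. Sertoli cell markers, of which 13 were found, summed to 287 to 291 TPM in spermatogonia, 8.18 to 12.4 in spermatocytes and 679 to 1220 in round spermatids. Most of that sum was CLU, at 267 to 270 TPM in spermatogonia and 597 to 1110 in round spermatids. Of 12 Sertoli cell markers tested, 11 were called lower and 0 higher in spermatocytes, and 9 higher and 1 lower in round spermatids, against spermatogonia. Of all genes tested, 44.0% were lower and 29.3% higher in spermatocytes, and 39.5% higher and 39.7% lower in round spermatids. In spermatocytes AMH and GATA1 were at 0 in all libraries. The 10 markers of myoid cells, the contractile cells around the tubules, summed to 21.8 to 22.9, 6.96 to 14.7 and 3150 to 4680 TPM in the same order. The 8 endothelial markers summed to 19.9 to 21.8, 9.4 to 17.8 and 84.4 to 144 TPM, and the 10 leukocyte markers to 4.63 to 5.07, 1.62 to 3.51 and 38.7 to 54.7 TPM. All 4 lists were thus at their highest in round spermatids, where the 8 Leydig cell genes were 28.8 to 61.8 TPM. These 8 were at their highest in spermatogonia, where INSL3 made up 63.7% of their sum. The lists of other Leydig cell genes did not follow the 8. Against spermatogonia, 12 of 14 transcription regulators were higher and 1 lower in round spermatids. Among 11 other transcripts of Leydig cells 8 were higher and 3 lower there. ACTA2, the smooth muscle actin, averaged 5.06, 0.502 and 1180 TPM in the 3 stages. The part of other cell types in the levels of the 8 genes was not tested.

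**Figure D5:**
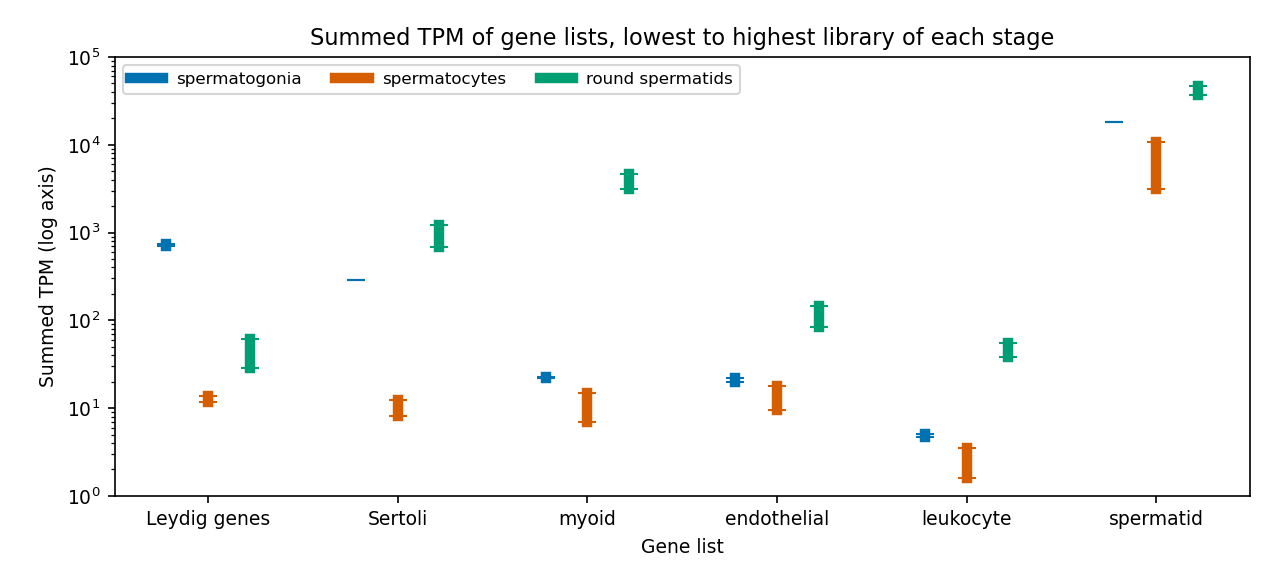
Summed TPM (log axis) of the 8 Leydig cell genes and of marker lists, drawn from the lowest to the highest library of each stage. The 8 Leydig cell genes are highest in spermatogonia (703 to 746 TPM, 63.7% of it INSL3). The Sertoli, myoid, endothelial and leukocyte lists are highest in round spermatids. Lists of other Leydig cell genes are not drawn. Of 14 regulators 12 were called higher and 1 lower in round spermatids than in spermatogonia.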

How the data were processed

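Estimated counts per gene form 1 deposited table and TPM values another, with a column for each library. A directional kit and an Illumina platform are named per the labels' protocols, and the build Sscrofa11.1 and the tool bcl2fastq per the submitters' processing notes. For the aligner, quantifier, annotation and use of strand, the answer is not given in the sources used here. Columns were matched to samples by heading. Spermatogonia columns are headed after the KIT receptor and spermatocyte columns after the pachytene stage, with the numbers of the titles. That match rests on the meaning of these names, the level of KIT itself did not bear it out, and another column shares a number with a spermatogonia title. The 6 other library columns were not used.

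Symbols were found for 14749 identifiers, and positions come from RefSeq (Sscrofa11.1) by symbol. Estimated counts were rounded, filtered with filterByExpr, scaled with TMM factors (0.774 to 1.26) and fitted with edgeR 4.0.16 in R 4.3.3 over all 9 libraries (common dispersion 0.0316). The SE was computed as the log2 change divided by the root of F. P-values were adjusted over 16802 genes by Benjamini-Hochberg. limma 3.58.1 on log2(TPM + 0.1) and DESeq2 1.42.0 were alternatives. Ratios were tested with exact permutation in scipy 1.17.1. The edgeR step was tested on simulated data in which few genes changed, and only in spermatocytes. That test did not cover shifts as broad as those seen here. The deposited TPM columns left out 3.19 to 11.8% of the full scale. Same-numbered libraries did not deviate together (correlations -0.048 to 0.028, beside -0.09 to 0.093 for libraries of different number). The spermatogonia libraries were nearly alike, so this cannot tell whether libraries shared an animal.

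The genes and lists were chosen with earlier results of these data known. Besides the 8 genes, the text names up to 3 genes of each pathway list and 2 of each marker list by highest mean TPM, HSD17B3, NR5A1 and RXFP2, the 6 genes of nearest profile and neighbouring genes. FDXR and KIT were picked beyond that rule. Some genes that the rule names are not reported here. Promoter sequences were not used here.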

Additional observations from a re-analysis of the deposited data

How the results depend on the processing

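In 21 alternatives for each comparison (scaling, filters, DESeq2, TPM with limma, a test against a 2-fold change, single libraries left out, a replicate block, and spermatogonia libraries summed into 1 sample, the last chosen after seeing the data), all 8 genes stayed lower in spermatocytes than in spermatogonia. In round spermatids against spermatogonia 8 were lower in each alternative but the 2-fold test, where 6 passed: CYP11A1 (adjusted p = 0.197) and CYB5A (0.24) did not. In round spermatids against spermatocytes the count of genes called lower went from 1 (FDX1) to 0 without normalization factors, on TPM with pseudocounts of 0.1 or 1, on unfiltered TPM, and in the 2-fold test. STAR reversed there without a filter (-0.003), without spermatocytes 4 (-0.03) and with the replicate block (-0.083, adjusted p = 0.783), and ranged from -0.03 to 0.411 with 1 library left out. It passed without normalization factors (0.655, adjusted p = 0.0319). LHCGR passed there on TPM with a pseudocount of 0.1 (0.97, adjusted p = 0.0398). It was tested there in 20 of the 21 alternatives, being filtered out where only the compared groups were fitted. With the replicate block, which pairs libraries only by number, 8 genes stayed lower in both comparisons with spermatogonia. The scaling moved the median of all genes in spermatocytes against spermatogonia from -0.325 to -0.142 (RLE) and -0.744 (none). Genes under 1 CPM rest on few counts, and intervals of counts cover counting error only.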
